A study of Homo sapiens with 21 samples.

Results

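The microRNA machinery genes examined here were TNRC6A, TNRC6B, TNRC6C, DICER1, DROSHA and XPO5, taken by name as a set of 6 among the 18322 genes named in the HNRNPK cluster lists. Every binding cluster carrying 1 of these 6 gene names was used, which gave 776 of 778762 clusters. Where clusters of either fraction or line shared 1 nt or more of the same strand they were merged, which gave 552 sites of 592021. The clusters came from PAR-CLIP, a method in which cells take up 4-thiouridine, are irradiated so that the labelled RNA crosslinks to protein, and the crosslinked positions later read as T-to-C conversions. HNRNPK is an RNA binding protein with KH domains that prefer C-rich RNA, and it was precipitated with an antibody against HNRNPK/J from MDA-MB-231 cells, a triple-negative breast cancer line. There were 4 libraries, from the cytoplasm of parental cells, the cytoplasm of KRT19 KO cells, the nucleus of parental cells and the nucleus of KRT19 KO cells, and values are listed in that order throughout. KRT19 encodes the intermediate filament protein keratin 19 and was disrupted with CRISPR/Cas9, and whether the KO cells of these libraries were a single clone is not given in the sources used here. All 4 libraries came from cells given 4-thiouridine, and an untreated or mock-precipitated control was not analysed here. Each condition had 1 library, so no p-value was computed and no difference could be set against a spread between replicates. The intervals given are exact 95% intervals and cover counting error only.

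MicroRNAs are cut from long nuclear transcripts by DROSHA, the RNase III enzyme of the Microprocessor, and the resulting hairpin precursors leave the nucleus with XPO5, exportin-5. In the cytoplasm DICER1, a second RNase III enzyme, trims the hairpin, and the mature strand is loaded on an Argonaute protein. The paralogs TNRC6A, TNRC6B and TNRC6C (the GW182 proteins) bind Argonaute and recruit the CCR4-NOT and PAN2-PAN3 deadenylases to the targeted mRNA. The question asked of the data was where HNRNPK lay on the transcripts of these genes and how that differed between fractions and between parental and KRT19 KO cells.

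The libraries held 5551612, 6216226, 3537577 and 3252800 reads in clusters, of which the 6 genes had 5093, 4493, 3868 and 3416 reads in 222, 184, 176 and 194 clusters. Unique read sequences made up 30.9%, 45.6%, 20% and 19% of the reads in clusters, so the cytoplasmic libraries rested on more distinct fragments than the nuclear ones. Conversions of T to C were carried by 64.8%, 62.6%, 66.1% and 74.2% of the reads of the 6 genes, beside 66.4%, 59.6%, 72.9% and 76.7% of all reads in clusters. A check of the genotype on KRT19 itself was not possible, since the gene had a single intronic cluster, of 7 and 5 reads, in the 2 cytoplasmic libraries and none in the nuclear ones. In 215 bins of 100 kb, the parental cytoplasmic library had at least 5 clusters and the other 3 libraries had none, against 2, 4 and 5 such bins for the other libraries in turn. None of the 776 clusters lay in such a bin. The smallest cluster had 5 reads, and reads outside called clusters were not used here, so a gene or site at 0 is one where no cluster was called.

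The sites below carry the results that follow. All are on hg19 and read 5′ to 3′ along the transcript, and the capitals mark runs of at least 3 C. Sites in a 3'UTR longer than 30 bases are limited to their 30-base stretch with the most C. The printed C content of such a site is thus not that of the whole site. The first group was bound in all 4 libraries, in an intron of TNRC6A, an intron of DROSHA, exon 5 of DROSHA, exon 8 of DICER1 and the 3'UTR of TNRC6B. It is a part of the 15 such sites. Some of those not printed, in TNRC6A introns 4 and 7 and DROSHA introns 23 and 27, had no run of 3 C.
TNRC6A intron 2 (chr16:24756187-24756223, plus strand): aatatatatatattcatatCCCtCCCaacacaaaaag
DROSHA intron 16 (chr5:31477327-31477364, minus strand): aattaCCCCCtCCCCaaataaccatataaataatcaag
DROSHA exon 5 (chr5:31526398-31526429, minus strand): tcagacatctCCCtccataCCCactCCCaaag
DICER1 exon 8 (chr14:95590587-95590614, minus strand): caaattttccttctccttttaccaacat
TNRC6B 3'UTR (chr22:40727392-40727421, plus strand): acaatttcacctcttctCCCCactcctatc
The second group is shown because these sites, chosen after their values were seen, differed in presence between libraries and lay in different genes. The TNRC6A site was called in parental cells and the TNRC6C and XPO5 sites in KRT19 KO cells, the second TNRC6B site had nearly all its reads in the KRT19 KO cytoplasm, and the DICER1 site was cytoplasmic.
TNRC6A 3'UTR (chr16:24836493-24836522, plus strand): caccattttaaactttctttcctCCCCCCt
TNRC6B 3'UTR (chr22:40723851-40723880, plus strand): ccttttttttttttaactactttttaaaac
TNRC6C 3'UTR (chr17:76101510-76101539, plus strand): atttttttatCCCaaaaaatattttttaaa
XPO5 exon 32 (chr6:43491672-43491701, minus strand): aatcttCCCtcacttttcaaaaaaacaaag
DICER1 3'UTR (chr14:95555704-95555733, minus strand): ctcctcacataaatttcttactatactttt

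HNRNPK clusters were called on all 6 genes in all 4 libraries, and TNRC6C had the fewest under its name for its length. Cluster numbers were 60, 48, 46 and 60 in TNRC6A, 62, 48, 40 and 39 in TNRC6B, and 10, 4, 6 and 4 in TNRC6C. They were 30, 28, 22 and 23 in DICER1, 51, 35, 43 and 47 in DROSHA, and 9, 21, 19 and 21 in XPO5. Per 100 kb of gene, DICER1 had 41.8, 39, 30.6 and 32 clusters and TNRC6C had 6.66, 2.67, 4 and 2.67, where the median of the protein-coding genes with a cluster was 18.3, 17.7, 17.3 and 16.1. In RPM, the reads of a gene per 1000000 reads in all clusters of the library, divided by gene length, the highest gene was DICER1 in both cytoplasmic libraries, with 174 and 157 RPM per 100 kb, and DROSHA in both nuclear ones, with 309 and 242. TNRC6C was lowest in each library, at 8.76, 13.7, 13 and 9.22 RPM per 100 kb. The TNRC6C values used the full length of the gene but left out 7, 3, 5 and 5 clusters inside it that carried no gene name.

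DROSHA, the nuclear enzyme, had 207, 109, 407 and 319 RPM, so both nuclear libraries were above both cytoplasmic ones. DICER1 had 125, 113, 104 and 107 RPM, and its highest value exceeded its lowest by a smaller factor than in any of the other 5 genes. XPO5 had 22.2, 48.1, 68.1 and 77.5 RPM, with the parental cytoplasmic library lowest. Among the GW182 paralogs the order of the libraries differed from gene to gene. TNRC6A had 359, 194, 349 and 378 RPM, and the KRT19 KO cytoplasmic library alone was low. TNRC6B had 191, 238, 146 and 156 RPM, with both cytoplasmic libraries above both nuclear ones. TNRC6C had 13.1, 20.6, 19.5 and 13.8 RPM from no more than 128 reads in a library. More binding and more RNA of a gene cannot be told apart from reads in clusters.

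**Figure D1:**
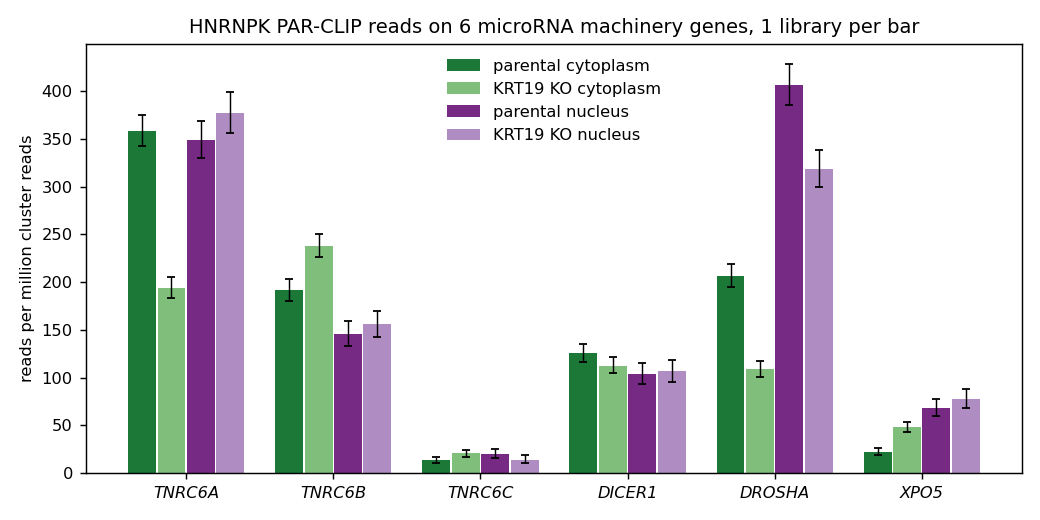
Reads in HNRNPK clusters of the 6 genes, with 1 bar for each of the 4 libraries, in RPM on a linear axis. Error bars are exact 95% Poisson intervals of the read counts. DROSHA runs from 109 to 407 RPM and DICER1 only from 104 to 125.

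Differences between libraries were described as ratios of RPM, and a gene was counted as different at a ratio of at least 2 or at most 0.5 with at least 100 reads in the pair. The 4 comparisons share libraries, so that a low parental cytoplasmic value enters both the genotype ratio and the fraction ratio. Between the cytoplasm of KRT19 KO and parental cells, XPO5 was the only member past 2-fold, with 2.17 times the RPM in KRT19 KO cells (1.75 to 2.70), though not with clusters of at least 10 reads alone (1.48). Across all genes 19.6% were at least 2-fold higher and 20.2% at least 2-fold lower in this comparison, so 1 gene in 6 was near the background. TNRC6A (0.54, 0.50 to 0.58) and DROSHA (0.53, 0.48 to 0.58) were lower in KRT19 KO cytoplasm without reaching 2-fold. TNRC6B was 1.25 and DICER1 0.90 (0.81 to 1.00), beside a median of 0.96 over all genes with quartiles of 0.57 and 1.69.

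In the nucleus no member passed 2-fold between KRT19 KO and parental cells, where 11.2% of all genes were higher and 15.7% lower. DROSHA had the ratio farthest from 1 among the members with more than 200 reads per library, at 0.78 (0.72 to 0.85). TNRC6A (1.08), TNRC6B (1.07), DICER1 (1.03) and XPO5 (1.14) lay close to 1, and the median of the 6 genes was 1.05 against 0.93 over all genes. The TNRC6B ratio depended on the clusters used, and with at least 2 conversion locations it was 0.47, past 2-fold. TNRC6C was 0.71 from 69 and 45 reads.

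Cytoplasm and nucleus of parental cells differed past 2-fold in XPO5 alone, at a ratio of 0.33 (0.26 to 0.41), where 19.1% of all genes were higher and 31.3% lower in the cytoplasm. DROSHA followed at 0.51 (0.47 to 0.55), and TNRC6A was 1.03, DICER1 1.21 and TNRC6B 1.31. In KRT19 KO cells DROSHA alone was past 2-fold, at 0.34 (0.31 to 0.38), where 26.1% of all genes were higher and 38% lower. TNRC6A was 0.51 (0.47 to 0.56), XPO5 0.62 and TNRC6B 1.53 in these cells. DROSHA was thus lower in the cytoplasm in both cell lines and TNRC6B higher in both, and the difference between the lines was not tested. The XPO5 ratios depended on the clusters used, since with at least 2 conversion locations they were 0.86 for the parental and 1.45 for the KO line. The all-gene medians of these ratios were 0.71 and 0.72.

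**Figure D2:**
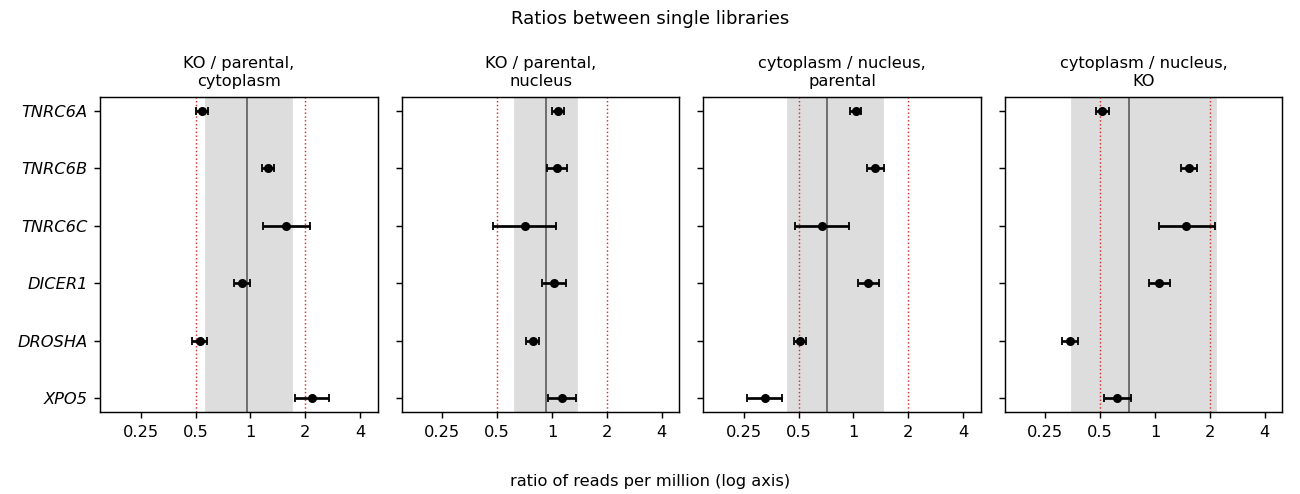
Ratio of RPM between pairs of libraries for the 6 genes (points) on a log axis, with exact 95% intervals for counting error. The grey line and band are the median and quartiles of all genes with at least 100 reads in the pair, and dotted lines mark 2-fold. XPO5 passes 2-fold in KRT19 KO over parental cytoplasm (2.17) and in parental cytoplasm over nucleus (0.33), and DROSHA in KRT19 KO cytoplasm over nucleus (0.34).

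By annotation class, the clusters of the 6 genes were mostly intronic, with shares of 78.4%, 63%, 85.8% and 84.5%, near the 74.4%, 63.4%, 83.7% and 82.1% of all clusters with a gene name. The 3'UTR held 14.4%, 24.5%, 7.39% and 8.25% of their clusters, against 13%, 20.4%, 4.8% and 5.37% over all named genes. Coding sequence stood further from the background than either, as a ratio of the shares. It held 6.76%, 12%, 6.25% and 5.67% of the clusters of the 6 genes and 3.42%, 6.11%, 2.05% and 2.02% of all named clusters. In reads the coding share of the 6 genes was 9.37%, 15.9%, 20.3% and 16.9%. It was 2.27%, 5.88%, 2.35% and 4.37% of all reads, which include those in clusters without a gene name. Most coding reads of the 6 genes were those of DROSHA exon 5 in the parental cytoplasm (355 of 477) and both nuclei (722 of 785 and 412 of 576). In the KRT19 KO cytoplasm the exon had 297 of 716.

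**Figure D3:**
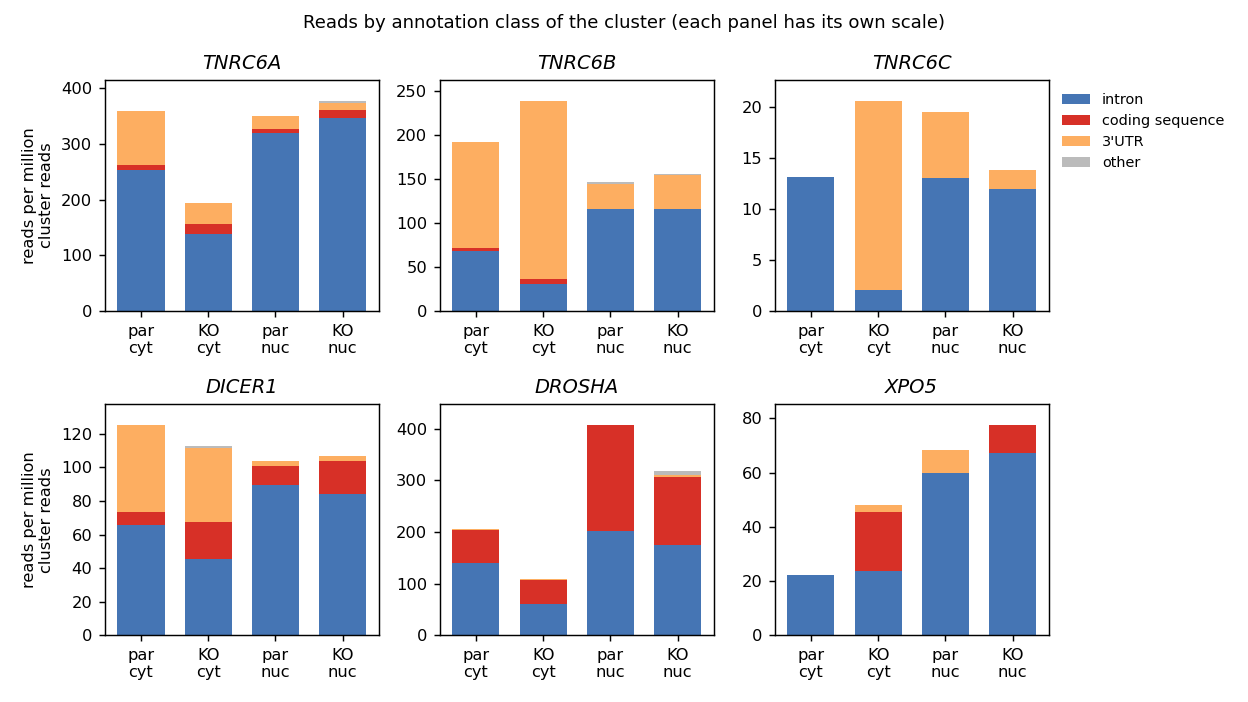
Reads in clusters of the 6 genes by annotation class and library, as stacked bars in RPM with a scale of its own for each gene. The coding reads of DROSHA are largest in the parental nucleus (204 RPM), and the 3'UTR reads of TNRC6B are largest in the KRT19 KO cytoplasm (202 RPM).

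DROSHA (chr5:31400601-31532303, minus strand, 36 exons) had nearly all of its coding reads in a single exon. Exon 5 (chr5:31526186-31527019) is 834 nt long, consists of C at 37.8% of its positions where the coding sequence of DROSHA as a whole has 24.9%, and contains 61 occurrences of CCC when overlapping ones are counted. Its reads numbered 355, 297, 722 and 412, which were 30.9% (28.3 to 33.7), 43.9% (40.1 to 47.7), 50.2% (47.6 to 52.8) and 39.7% (36.7 to 42.8) of all DROSHA reads. All coding reads of DROSHA were in this exon, except for 20 reads of the KRT19 KO nuclear library. In RPM the exon had 64, 47.8, 204 and 127, so that both nuclear libraries were above both cytoplasmic ones. The coding ratio of cytoplasm to nucleus was 0.31 (0.28 to 0.36) for the parental line and 0.36 (0.31 to 0.42) for the KO line, whereas the medians over all genes for coding clusters were 2.06 and 5.52. Between KRT19 KO and parental cells the coding ratio was 0.75 in the cytoplasm and 0.65 in the nucleus.

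The exon held 7 sites, which are numbered here from the first nucleotide of the exon. The site at 590 to 621 had 33, 60, 83 and 120 reads and was the only one present in all 4 libraries. At 88 to 122 there were 77, 135, 196 and 0 reads, and at 493 to 521 there were 69, 102, 104 and 0, so that both sites lacked a cluster in the KRT19 KO nucleus. The opposite was seen at 152 to 181, with 85, 0, 127 and 211 reads, and at 377 to 414, with 91, 0, 131 and 81, where no cluster was called in the KRT19 KO cytoplasm. The other two sites were called only in the parental nucleus, with 41 and 40 reads. The exon as a whole was thus bound in every library while 4 of its 5 larger sites were missing from 1 of the KRT19 KO libraries each. Among the sites of all genes with at least 100 reads, 38.7% were called in 3 libraries and 27% in 4. The share missing from a KRT19 KO library in particular was not computed. The 2 stretches that hold the 5 larger sites are shown because of the pattern in this exon, with the bases inside those sites in capitals.
DROSHA exon 5, the sites at 88 to 122 and 152 to 181 (chr5:31526838-31526931, minus strand): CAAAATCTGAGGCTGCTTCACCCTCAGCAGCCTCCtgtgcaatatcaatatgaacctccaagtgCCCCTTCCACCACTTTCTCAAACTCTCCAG
DROSHA exon 5, the sites at 377 to 414, 493 to 521 and 590 to 621 (chr5:31526398-31526642, minus strand): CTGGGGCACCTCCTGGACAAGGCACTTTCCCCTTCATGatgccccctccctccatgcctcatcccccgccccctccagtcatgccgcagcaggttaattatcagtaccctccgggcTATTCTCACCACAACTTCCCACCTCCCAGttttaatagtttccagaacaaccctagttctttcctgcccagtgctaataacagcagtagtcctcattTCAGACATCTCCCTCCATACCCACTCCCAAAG

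**Figure D4:**
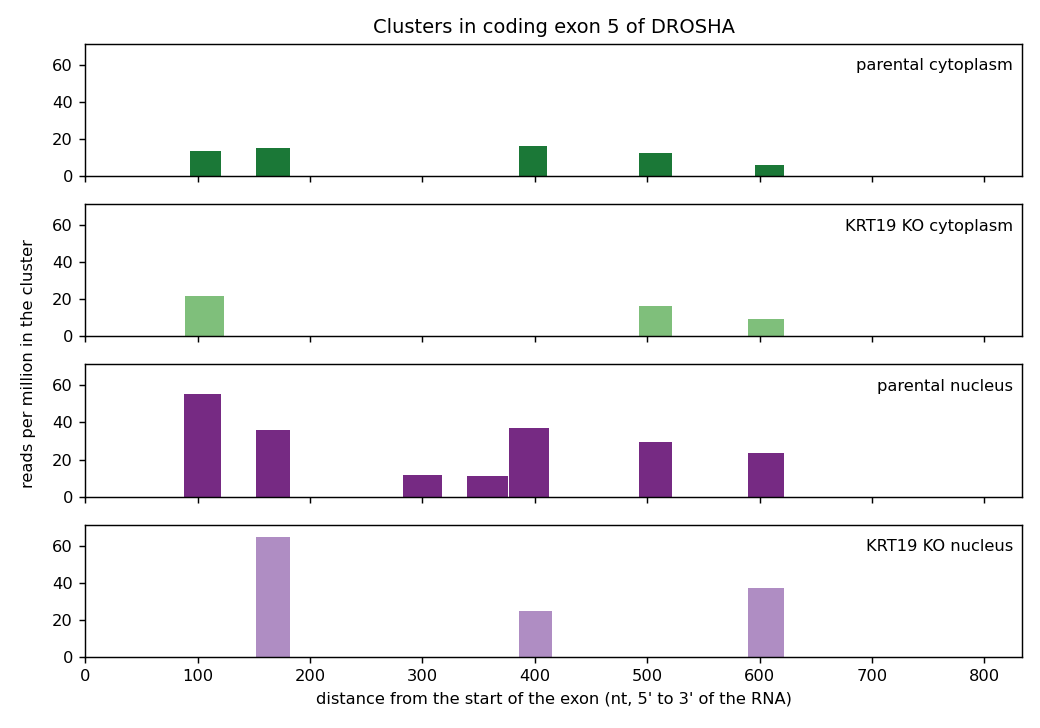
Sites in exon 5 of DROSHA by distance from the first nucleotide of the exon (nt) and their RPM in each of the 4 libraries. The site at 590 to 621 nt is present in every library, and those at 88 and 493 nt are absent from the KRT19 KO nucleus and those at 152 and 377 nt from the KRT19 KO cytoplasm.

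The introns of DROSHA held 782, 374, 717 and 567 reads in 115 sites spread over the gene. The largest was in intron 16, with 163, 76, 90 and 36 reads, and it contained a run of 5 and a run of 4 C. The next ones in all 4 libraries were in intron 14 (24, 26, 41 and 29 reads) and intron 23 (28, 12, 32 and 44 reads), and a small one was in intron 27 (8, 8, 9 and 8 reads), and intron 23 also had the most sites of any DROSHA intron, at 15. The intronic ratio of KRT19 KO to parental cytoplasm was 0.43, lower than for the coding clusters of this gene and below the all-gene intronic median of 0.61. A site in intron 30, chr5:31411264-31411294, had 35 reads in the parental cytoplasm and 92 in the parental nucleus and was not called in KRT19 KO cells. The 3'UTR of DROSHA, 938 nt long, had 5, 6, 0 and 12 reads.

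XPO5 (chr6:43490072-43543775, minus strand, 32 exons) had only intronic clusters in the parental cytoplasm, with 123 reads in 9 clusters. In the KRT19 KO cytoplasm it had 148 intronic, 134 coding and 17 3'UTR reads, and in the nuclear libraries 212 and 219 intronic reads. The intronic ratio of KRT19 KO to parental cytoplasm was therefore 1.08 (0.84 to 1.38), and the 2-fold difference of the whole gene lay in the coding and 3'UTR clusters. Over all genes the intronic median was 0.61 with quartiles of 0.40 and 0.92, so the XPO5 intronic ratio was above the upper quartile. The all-gene medians were 2.58 for coding and 1.62 for 3'UTR clusters. The site in exon 32, the last exon, had 0, 127, 0 and 26 reads from 67 and 5 distinct sequences. No cluster was called there in either fraction of the parental cells. Leaving out the largest cluster of each gene in each library lowered the XPO5 ratio of the cytoplasmic libraries from 2.17 to 1.71, and taking only clusters of at least 10 reads lowered it to 1.48, both below 2-fold. Parental cytoplasm had its largest XPO5 cluster in intron 8 (chr6:43530671-43530702), with 33, 30, 0 and 14 reads. No XPO5 site was called in all 4 libraries. Intron 20, the longest of the gene at 12.6 kb, had 11 of the 47 intronic sites, or 23.4%, close to its 26% of the intron length.

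DICER1 (chr14:95552565-95624347, minus strand, 27 exons) was the member whose total changed least and whose 3'UTR separated the fractions most. Its 3'UTR, 4270 nt long, had 286 and 274 reads in the cytoplasm and 11 and 9 in the nucleus of parental and KRT19 KO cells. The ratios of cytoplasm to nucleus were 16.6 (9.12 to 33.6) and 15.9 (8.27 to 35.2), where the all-gene medians for 3'UTR clusters were 8.44, just under the first interval, and 11.3, inside the second. The site at chr14:95555671-95555733 had 121, 135, 0 and 0 reads, and that at chr14:95552907-95552966 had 47, 93, 0 and 0. Intronic reads numbered 366, 281, 317 and 273, so the ratio between cytoplasmic libraries was 0.69 for introns and 2.85 (2.01 to 4.11) for coding clusters, near the all-gene coding median of 2.58. The coding clusters included the exon 8 site printed above, with 12, 40, 11 and 29 reads, which was the only DICER1 site in all 4 libraries, and 1 in exon 21 (chr14:95570387-95570419) with 18, 70, 0 and 30 reads. The exon 8 site had no run of 3 C. Intron 1, 23.7 kb long, had 22 of 52 intronic sites, or 42.3%, against 39% of the intron length. Intron 24 had 155, 0, 39 and 28 reads and no cluster in the KRT19 KO cytoplasm.

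TNRC6A (chr16:24621530-24838953, plus strand, 25 exons) had the most sites of the 6 genes in all 4 libraries, 7 of the 15 such sites. The site of intron 2 printed above had 208, 211, 158 and 187 reads, or 37.5, 33.9, 44.7 and 57.5 RPM, and it was the largest site of TNRC6A in the KRT19 KO cytoplasm and in both nuclei. It held 2 runs of 3 C in an A and T rich stretch. Intron 2, 20.4 kb long, had 30 of the 118 intronic sites of TNRC6A, or 25.4%, against 23.2% of the intron length. The gene had 5 further, weaker intronic sites of this kind, each with fewer reads in the KRT19 KO than in the parental cytoplasm. Other sites of intron 2 called in all 4 libraries were those at chr16:24747171-24747200 (86, 26, 44 and 51 reads), chr16:24755041-24755070 (59, 42, 92 and 27) and chr16:24756485-24756519 (33, 13, 6 and 21). Intron 4 and intron 7 had 1 each, with 107, 50, 46 and 34 and with 38, 15, 72 and 7 reads. In coding sequence, a site in exon 25 had 23, 65, 17 and 12 reads. Over all introns TNRC6A had 1402, 857, 1132 and 1126 reads, and the ratio between the cytoplasmic libraries was 0.55, near the all-gene intronic median of 0.61.

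The 3'UTR of TNRC6A, 2411 nt long, had 533, 240, 80 and 45 reads, and the largest sites were called in 1 cell line only. The largest cluster of any member, at chr16:24836493-24836529, had 474, 0, 80 and 0 reads from 154 and 21 distinct sequences, with T-to-C conversions in 32.3% and 48.8% of its reads. No cluster was called there in either fraction of the KRT19 KO cells. The site at chr16:24835318-24835354 had 0, 174, 0 and 17 reads, so it was called in KRT19 KO cells alone. The 3'UTR ratio of KRT19 KO to parental cytoplasm was 0.40 (0.34 to 0.47), and it was 3.63 (2.72 to 4.92) without the site of 474 reads. That removal kept the KRT19 KO site, which held 174 of the 240 reads in the KRT19 KO cytoplasm. The direction thus depended on which of these sites was kept, and a ratio without both was not computed. Without the site of 474 reads the ratio of the whole gene was 0.71 (0.66 to 0.77) in place of 0.54.

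TNRC6B (chr22:40440821-40731812, plus strand, 23 exons) differed from the other members in that most of its reads in both cytoplasmic libraries were in the 3'UTR, which is 12567 nt long. The 3'UTR had 666, 1256, 102 and 125 reads, or 62.7%, 84.7%, 19.8% and 24.7% of the reads of the gene. In the KRT19 KO cytoplasm it was 1.68 times the parental value (1.53 to 1.85), near the all-gene 3'UTR median of 1.62. The ratios of cytoplasm to nucleus were 4.16 and 5.26, below the all-gene medians of 8.44 and 11.3. The printed site around chr22:40727392-40727421 had 249, 273, 22 and 38 reads, or 44.8, 43.9, 6.22 and 11.7 RPM, and so hardly differed between the cytoplasmic libraries. The C-poor site at chr22:40723851-40723882 had 0, 296, 11 and 0 reads, so no cluster was called there in the parental cytoplasm. When the 3'UTR was divided in 3 stretches of equal length, the middle one had 269 reads from parental cytoplasm and 765 from KO cytoplasm, the latter being 60.9% of its 3'UTR reads. The first and last stretches had 148 and 249 reads in the parental and 199 and 292 in the KRT19 KO cytoplasm.

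**Figure D5:**
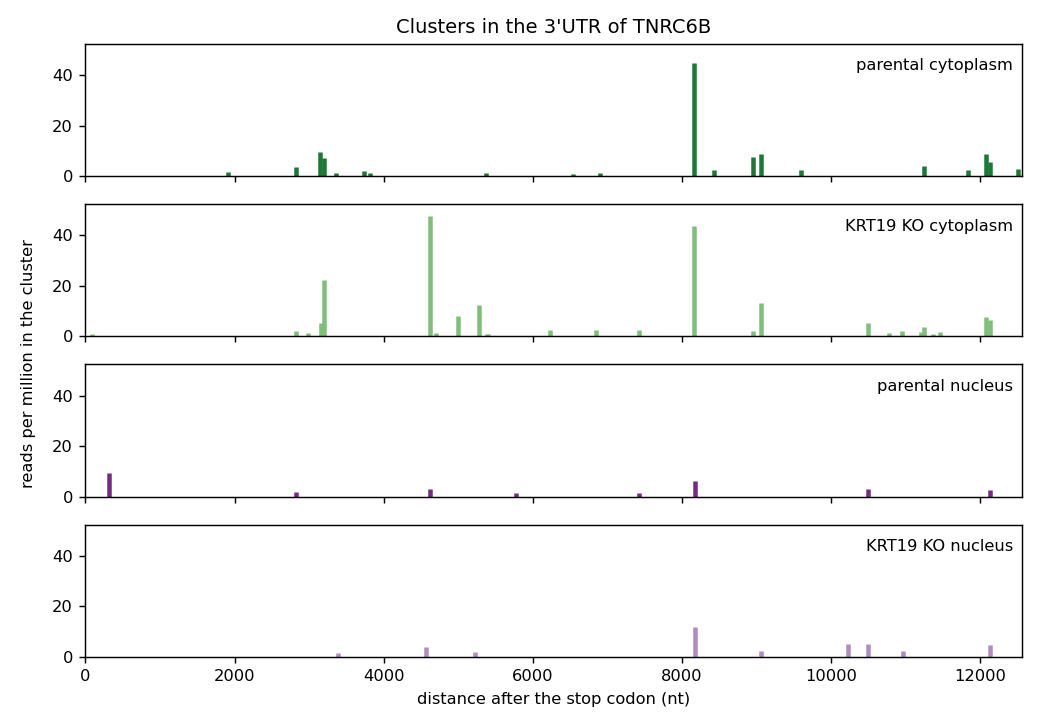
Clusters in the 3'UTR of TNRC6B by distance from the stop codon (nt) and their RPM in each of the 4 libraries. The cytoplasmic libraries share the site of 44.8 and 43.9 RPM, and the KRT19 KO cytoplasm has another site of 47.6 RPM where the parental cytoplasm has none.

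The introns of TNRC6B had 375, 188, 409 and 376 reads, and the ratio between the cytoplasmic libraries was 0.45. This lay inside the all-gene intronic quartiles of 0.40 and 0.92, around a median of 0.61. Inside the GENCODE transcript used here, intron 1, 67.9 kb long, had 25 of the 57 intronic sites, or 43.9%, against 48.6% of the intron length. Another 31 sites of the intron class lay upstream of that transcript, within the gene, and were not counted to an intron. Coding clusters of TNRC6B had 22 and 38 reads in the cytoplasm and none in either nucleus. Beside the site of 249 reads, only that at chr22:40731358-40731401, near the end of the 3'UTR, was in each of them, with 31, 41, 9 and 15 reads.

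TNRC6C (chr17:75954785-76104903, plus strand, 23 exons) had 24 clusters and 315 reads under its name over the 4 libraries. Another 20 clusters with 171 reads inside its span carried no gene name and were left out of the values below. In the parental cytoplasm all 73 reads were intronic, whereas in the KRT19 KO cytoplasm 115 of 128 were in the 3'UTR, and the nuclear libraries had 46 and 39 intronic and 23 and 6 3'UTR reads. A single site at chr17:76101510-76101541 held 110 of the KRT19 KO cytoplasmic reads from 57 distinct sequences, beside 0, 0 and 6 reads in the parental cytoplasm, the parental nucleus and the KRT19 KO nucleus. The ratio of KRT19 KO to parental cytoplasm was 1.57 (1.17 to 2.12) with all clusters, 0.26 without the largest cluster of each library, 7.93 with clusters of at least 10 reads and 3.49 with at least 2 conversion locations, so that neither its size nor its direction was stable. The ratio of cytoplasm to nucleus was 0.67 (0.48 to 0.95) in parental cells and 1.49 (1.05 to 2.14) in KRT19 KO cells, and without the largest clusters these were 0.84 and 0.45. With clusters of at least 10 reads they were 0.13 and 2.17.

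Of the 552 sites, 15 were called in all 4 libraries, which was 2.72% against 1.68% of all sites, and 392 were called in 1 library, 71% against 77.4%. TNRC6A had 7 of the 15, DROSHA 5, TNRC6B 2 and DICER1 1, and TNRC6C and XPO5 had none. Of the clusters in each library, 49.1%, 54.9%, 52.3% and 42.3% overlapped a cluster of another library, beside 43.6%, 47%, 38% and 36.8% of all clusters. Of the 32 sites with at least 100 reads over the libraries, 11 were called in all 4 (34.4%), 9 in 3 (28.1%) and 12 in 2 (37.5%), and none in a single library. The 23471 such sites of all genes had shares of 27% in 4 libraries, 38.7% in 3, 26.7% in 2 and 7.67% in 1. Among the 32, 3 were called only in parental cells and 4 only in KRT19 KO cells, in both fractions of the line, which was 9.38% and 12.5% where 2.76% and 3.43% of such sites of all genes were. Over all 552 sites, without the read minimum, 27 were called in both parental libraries only and 19 in both KRT19 KO libraries only, or 4.89% and 3.44%, against 2.76% and 2.31% of all sites. The 3 well-covered parental sites were in TNRC6A (intron 5 and 3'UTR) and DROSHA (intron 30), and the 4 KRT19 KO sites in TNRC6A (intron 2 and 3'UTR), TNRC6C (3'UTR) and XPO5 (exon 32). Within 50 nt of these 7 sites the other cell line had no reads in clusters, except for 12 reads in the parental cytoplasm beside the TNRC6A intron 2 site. Another 3 sites were called in both cytoplasmic libraries only, 9.38% against 13.1% of all such sites, and none in both nuclear libraries only, against 2.36%.

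The sequence features of the clusters were those of the libraries as a whole. The C-rich motif associated with HNRNPK, NNCCC with T or A as its first and any base but G as its second letter, was searched along the transcript strand of each cluster, and a cluster with several or overlapping matches was counted once. It was found in 29.3% (23.4 to 35.7), 25.5% (19.4 to 32.5), 30.1% (23.4 to 37.5) and 30.4% of the clusters of the 6 genes, and in 29.8%, 30.1%, 32.9% and 33.6% of all clusters. G was rare in the clusters of the 6 genes, at 6.35% and 7.22% of the bases in the 2 cytoplasmic libraries, beside 6.96% and 7.22% over all clusters. The RNA had been trimmed with RNase T1, which cuts after G. Intronic clusters within 50 nt of a 3' splice site numbered 3 of 174, 1 of 116, 3 of 151 and 3 of 164, or 1.72%, 0.86%, 1.99% and 1.83%, beside 1.12%, 1.2%, 1.72% and 1.94% of all intronic clusters.

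In the wider pathway, a list of 41 further genes that act with these 6 was examined, of which 38, 35, 37 and 36 had a cluster. With the most clusters over the 4 libraries in each group stood DDX17, an RNA helicase associated with the Microprocessor (117), PRKRA, a DICER1 partner (25), AGO3, an Argonaute (128), DIS3L2, an exonuclease of uridylated pre-let-7 (153), CNOT2, a subunit of the CCR4-NOT deadenylase (288), XRN1, the 5′ to 3′ exonuclease (120), and PABPC1, the cytoplasmic poly(A) binding protein (55). Between KRT19 KO and parental cytoplasm, 3 of the 34 list genes with enough reads were at least 2-fold higher and 9 lower, at a median ratio of 0.87, where 19.6% and 20.2% of all genes were. The higher ones were the deadenylase CNOT8, with 130 reads in parental and 512 in KRT19 KO cytoplasm, the CCR4-NOT subunit CNOT9, with 1063 and 2807, and the decapping factor EDC3, with 174 and 413. Of the genes on the list, DDX5, CNOT3 and LSM14A had 100%, 100% and 47.4% of their parental cytoplasmic clusters in bins blank in the other 3 libraries. Without these 3 genes, 3 of 32 were higher and 7 lower, at a median of 0.92, beside 20% and 18.6% of all genes without those in such bins. The part of the blank bins in the calls that remained was not tested.

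Between the nuclei 2 of 29 list genes were higher and 2 lower in KRT19 KO cells, at a median of 1.06, beside 11.2% and 15.7% of all genes. The deadenylase CNOT7 had 27 reads in parental and 111 in KRT19 KO nuclei and the decapping activator PATL1 230 and 625. TUT7, a terminal uridylyltransferase, had 299 and 128 and the decapping enzyme DCP2 357 and 116. From nucleus to cytoplasm, 9 of 34 were higher and 8 lower in the cytoplasm of parental cells, at a median of 0.77, beside 19.1% and 31.3% of all genes. The higher ones included DDX5 and LSM14A. Without the list genes in the blank bins, 7 of 32 were higher and 8 lower, at a median of 0.73. Of all genes without those in such bins, 17.5% were higher and 31.9% lower. In KRT19 KO cells 7 of 31 were higher and 11 lower, at a median of 0.66, beside 26.1% and 38%, so that most of these counts lay near the background. DGCR8, the DROSHA partner in the Microprocessor, was lower in the cytoplasm in both lines, with 87 reads against 307 in parental and 83 against 156 in KRT19 KO cells.

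The genes whose RPM over the 4 libraries were most like each member were found among 7462 genes by the distance between log2 values centred on each gene's mean. The nearest to DICER1 were EPB41L5 and THRAP3, at distances of 0.04 and 0.06, and to DROSHA they were BRAF and RPSAP52, at 0.05 and 0.06. TNRC6A was nearest to PMS1 and RP11-421L21.3 (0.07 and 0.08), TNRC6B to CUL4B and RAB18 (0.07 and 0.08), TNRC6C to ERO1LB and RBM28 (0.11 each) and XPO5 to ACP1 and IQCK (0.08 and 0.11). BRAF, for instance, had 123, 68, 250 and 195 RPM, the same order of libraries as DROSHA.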

How the data were processed

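HNRNPK-bound RNA was measured by PAR-CLIP in 4 libraries, and RNA-seq of 17 further samples was not used here. According to the methods, the authors collapsed identical reads before removing adapters and molecular identifiers, aligned to hg19 and called clusters with PARalyzer in PARpipe. The methods describe the collection of the cytoplasmic fraction, and how the nuclear libraries were made is not given in the sources used here. The authors deposited raw counts of reads, unique reads and conversions per cluster, without normalization. No use was made of the other deposited values, namely the fraction of converted reads, the mode score and the log10 conversion specificity.

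Clusters were taken by gene name, and clusters on the same strand sharing at least 1 nt were merged into sites. RPM refers to 1000000 reads in all clusters of a library. Exons, introns and 3'UTRs came from GENCODE release 44 models on GRCh37, and the sequences of 776 of 776 clusters equalled GRCh37. Introns, coding sequence and 3'UTR refer to the deposited class of a cluster, and counts of sites per intron, and numbers of exons and introns, to the GENCODE transcript. Intervals were exact Clopper-Pearson, Poisson and conditional binomial ones (95%). Depth was 3252800 to 6216226 reads in clusters. Since clusters were listed from 5 reads upwards, no limit was set on the reads of a site without a cluster and no fold was computed against it. Scripts used Python 3.11.15, pandas 2.3.3 and scipy 1.17.1 and were checked on simulated clusters. Sites were named if they had the most reads of a gene in a library or were called in all 4 libraries. The other sites with coordinates, and those present in 1 cell line, were chosen after their values were seen. Of the list genes, those with the most clusters in each group and those of counts of 5 or fewer were named, and DGCR8, CNOT3, DDX5 and LSM14A after their values were seen. Members and lists were chosen with earlier results of these data known. The alternatives were minimum reads, conversion locations, unique reads, the denominator, a pseudocount, the fold and the largest cluster.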

Additional observations from a re-analysis of the deposited data

Results flagged for a closer look

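By the clusters that carry its name, TNRC6C was lower in the cytoplasm than in the nucleus of parental cells, at a ratio of 0.67. In KRT19 KO cells it was higher in the cytoplasm, at 1.49, an opposite direction between the cell lines. With 1 library per condition the difference was not tested, and 110 of the 128 KRT19 KO cytoplasmic reads came from 1 site. Without the largest cluster of each library the ratios were 0.84 in parental and 0.45 in KRT19 KO cells. All these ratios left out clusters in the TNRC6C span without a gene name. Those had 60 and 32 reads in the parental cytoplasm and nucleus, and 21 and 58 in the KRT19 KO ones. Ratios with them were not computed, so whether the opposite direction would remain is not shown.

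Inside the GENCODE span of TNRC6C, on its strand, 20 clusters with 171 reads had no gene name in the lists and were not counted with the gene. They had 60, 21, 32 and 58 reads in the 4 libraries, and lay between positions 75959480 and 75999581 of chromosome 17, before the first cluster named TNRC6C.

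Clusters were also called on antisense RNAs of 2 members. TNRC6C-AS1 had 195 reads over the libraries, namely 65, 47, 69 and 14, and DICER1-AS1 had 73, namely 25, 0, 8 and 40.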

How the results depend on the processing

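Past 2-fold were only the whole-gene ratios of XPO5 in KRT19 KO over parental cytoplasm and in parental cytoplasm over nucleus. To these came DROSHA in KRT19 KO cytoplasm over nucleus. None of these ratios turned its direction when the processing was varied. Of 141 varied ratios of the 6 genes, 127 stayed on the side of 1 they had, and 14 that had not passed 2-fold crossed it. Among alternatives chosen after seeing the data, the 3'UTR ratio of TNRC6A between cytoplasmic libraries turned from 0.40 to 3.63 without its largest site. The large site called only in KRT19 KO cells was kept in this alternative. Cluster numbers were 124, 91, 115 and 117 with at least 10 reads per cluster and 110, 121, 56 and 42 with at least 2 conversion locations. With 2 locations, the parental cytoplasmic shares were 70.9% intron and 20% 3'UTR, the coding share of each nucleus was 14.3% and the 3'UTR share of the KRT19 KO nucleus 4.76%. Counted in reads, introns had 61.3%, 41.4%, 73.2% and 76.1%, 3'UTRs 29.3% and 42.5% in the cytoplasmic libraries, and coding sequence 20.3% and 16.9% in the nuclear ones. The T-to-C share was 60.4%, 58.5%, 62.6% and 69.7% with 10 reads, 60.5%, 60.6%, 60.5% and 67.1% with 2 locations, and 69.1%, 66.2%, 68.2% and 76.4% without the largest cluster. Motif shares were 50% and 42.9% in the nuclei with 2 locations, and CCC was in 41.4%, 35.3%, 42% and 43.3%. Sharing with another library was 68.1% in the KRT19 KO cytoplasm with 10 reads, and with 2 locations it was 47.1% there and 69.6% and 69% in the nuclei. At 4-fold no member was called. Without the largest cluster, KRT19 KO over parental cytoplasm had 0 members higher and 1 lower (DROSHA, 0.49), also lower with unique reads (0.49), and KRT19 KO cytoplasm over nucleus had 2 lower (DROSHA and XPO5). With gene reads outside the mitochondrial and rRNA classes as the denominator the latter comparison had 2 lower (TNRC6A and DROSHA). With unique reads, parental cytoplasm over nucleus had DROSHA (0.47) lower in place of XPO5, which then had fewer than 100 in the pair. With 10 reads XPO5 in KRT19 KO over parental cytoplasm was 1.48, and with 2 locations XPO5 in parental cytoplasm over nucleus was 0.86, both inside 2-fold. Other ratios moved past 2-fold. With 2 locations TNRC6B was 0.47 in KRT19 KO over parental nucleus and 3.91 in KRT19 KO cytoplasm over nucleus. DROSHA in parental cytoplasm over nucleus was 0.45 with 10 reads and 0.35 with 2 locations. In KRT19 KO cytoplasm over nucleus TNRC6A was 0.46 with 10 reads and 0.40 with 2 locations, and XPO5 0.43 with 10 reads. DROSHA in KRT19 KO over parental cytoplasm was 0.49 with 10 reads. The cause of these changes was not tested. TNRC6C had 0 reads with 2 locations in a library of 3 comparisons, which gave no ratio. No paired analysis was possible because each condition had 1 library. TNRC6C and XPO5 had the fewest reads of the 6 genes. Single sites of 110 and 127 reads held 85.9% and 42.5% of their reads in the KRT19 KO cytoplasm.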
